A study of Mus musculus with 6 samples.

Results

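The transcripts described here are those of 10 genes of the hyaluronan-rich and collagen-binding heart matrix, chosen by gene symbol from a table of 31529 genes. They are Vcan, Has2, Hapln1 and Acan, which build the hyaluronan gel, and Bgn, Dcn, Lum, Ogn, Prelp and Fmod, which are small leucine-rich proteoglycans or their close relatives (SLRPs). All 10 were found, and all 10 passed the filter on low counts. The libraries came from hearts of wild-type (WT) ICR mice, which are outbred, and 3 were made at E16.5 and 3 at E18.5 (days of embryonic life). The design text calls them biological replicates. The number of hearts and the litter behind each library are not stated in the labels. The comparison asks how transcripts of the heart differ between these stages late in gestation.

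Hyaluronan is a very long, unbranched sugar chain spun into the extracellular space by the hyaluronan synthases, of which Has2 is the main enzyme of the embryonic heart. Versican (Vcan) and aggrecan (Acan) are large chondroitin sulfate proteoglycans that bind hyaluronan at their head, and the link protein Hapln1 clamps that bond. Together they swell with water and form the cardiac jelly and the cushions from which valves and septa are made, and loss of Has2 or Vcan stops heart development. SLRPs are small proteins with a curved leucine-rich repeat face that sits on collagen fibrils and sets their width and spacing. Decorin (Dcn) and biglycan (Bgn) carry chondroitin or dermatan sulfate, lumican (Lum), fibromodulin (Fmod) and osteoglycin (Ogn, also called mimecan) can carry keratan sulfate, and Prelp binds heparan sulfate. In the heart they are made mainly by fibroblasts and valve interstitial cells.

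Estimated counts summed to between 61443414 and 77237333 per library. The genes of the mitochondrial chromosome took 41.4%, 19.9% and 35.0% of counts in the E16.5 libraries against 33.5%, 26.7% and 25.2% in the E18.5 libraries. E16.5 replicate 2 stood apart from its stage: the correlation of its log2 expression values was 0.972 and 0.977 to its own stage, and 0.979 to 0.987 to libraries of E18.5. Values of single libraries are listed in the order of replicates 1, 2 and 3. Results that rest on E16.5 replicate 2 are given with and without it. Xist exceeded the Y-linked genes in E16.5 replicates 2 and 3 and E18.5 replicate 3, and the Y-linked genes exceeded Xist in the others. Cardiomyocyte genes were abundant, as the heart label states, with Tnnt2 between 4745 and 6159 CPM (counts scaled to library size) in every library. Lung genes were also present, with Sftpc, the surfactant protein C gene, at 33.5 to 64.9 CPM.

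No member passed the test between stages, and the values that came nearest were lower Vcan and higher Ogn at E18.5. Of 19959 genes tested, 0.150% passed, 0.0952% higher and 0.0551% lower at E18.5 (30 genes, edgeR quasi-likelihood test, Benjamini-Hochberg adjusted p under 0.05), and of the members 0 of 10 did. At an unadjusted p under 0.05, Ogn was higher and Vcan lower, where 4.83% and 4.70% of all genes were higher and lower and 9.53% were either. DESeq2 called both, Ogn higher and Vcan lower, and limma on log2(FPKM + 1) called no member. The median log2 change of the members was 0.26, against -0.0019 for all genes tested, and 7 of 10 were above 0, where 49.8% of all genes were. The 3 libraries of E18.5 lay above the 3 of E16.5 for Ogn and below them for Vcan, and the stages overlapped for the other 8. Over all genes, 8.45% lay above and 8.02% below in this way, or 16.5% in all. In whole hearts, fewer cells of a type and less RNA per cell cannot be told apart.

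**Figure D1:**
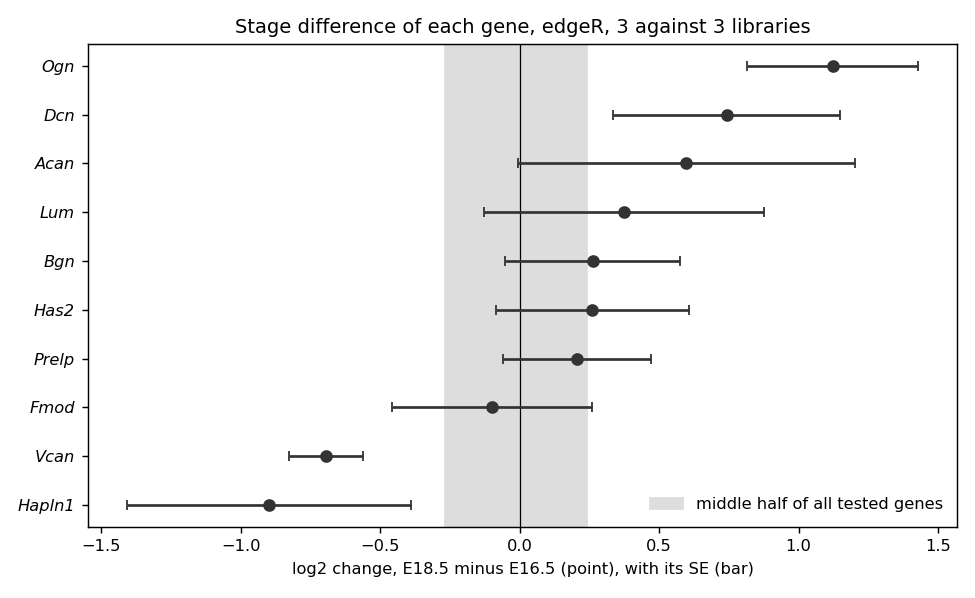
Log2 change of each member between E16.5 and E18.5 (points, positive means higher at E18.5) with its standard error (bars), from edgeR over 3 against 3 libraries, and a grey band for the quartiles of all 19959 tested genes. Ogn stands highest at 1.12 and Hapln1 lowest at -0.90, and Vcan, at -0.70, has the shortest bar.

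Vcan, the space-filling proteoglycan of cushions and cardiac jelly, had the smallest p of the members and ranked 94th of 19959 genes. Its level was 185, 204 and 188 CPM in the E16.5 libraries against 110, 132 and 114 CPM in the E18.5 libraries. All E16.5 libraries were above all E18.5 libraries, E16.5 replicate 2 included. The means were 192 ± 10.2 and 119 ± 11.5 CPM (SD, n = 3). The log2 change was -0.70 ± 0.13 (SE), or 0.618 times the E16.5 level, with an adjusted p of 0.149 (edgeR). In deposited FPKM, which divides by transcript length, Vcan was at 9.43, 15.8 and 10.9  at E16.5 against 6.51, 9.10 and 8.04 at E18.5, which also did not overlap. The difference was -0.76 in the 3 libraries where mitochondrial genes took over 30% and -0.73 in the remaining 3 (differences of mean log2 CPM, each with 1 library at 1 of the stages). With the mitochondrial share of each library as a term, the adjusted p was 0.0184 (edgeR), and without E16.5 replicate 2 it was 0.0420, with a log2 change of -0.65. With sex as a term it was 0.319, and over all 15 alternatives the adjusted p ran from 0.000146 (DESeq2) to 0.815 (library sizes without TMM). The gene is at 13:89655312-89742509 on the minus strand of GRCm38 (GENCODE M21). Counts per FPKM of Vcan agreed between libraries to within 0.0298%, so the table applied the same transcript length in every library and does not resolve the splice forms of versican.

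Hapln1 lies beside Vcan on chromosome 13 and its product locks versican to hyaluronan. It was at 2.65, 12.1 and 5.17 CPM in the E16.5 libraries against 3.23, 4.83 and 2.62 CPM in the E18.5 libraries. E16.5 replicate 2 was far above every other library, and the remaining values overlapped. The log2 change of -0.90 ± 0.51 had an adjusted p of 0.606, and it was -0.14 without E16.5 replicate 2. The ratio of Vcan to Hapln1 in FPKM ran from 6.90 to 28.6 at E16.5 and from 11.2 to 17.9 at E18.5, so the levels of these neighbours did not keep a fixed proportion.

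Acan, the aggrecan of cartilage that valves also make, was low in all libraries, with 74 to 468 counts. It was at 1.18, 1.92 and 6.79 CPM in the E16.5 libraries against 7.02, 4.75 and 3.20 CPM in the E18.5 libraries. E16.5 replicate 3 held a level like that of the E18.5 libraries, and the other E16.5 libraries were lower. The log2 change was 0.60 ± 0.61 with an adjusted p of 0.770. The cartilage markers ran the other way: 7 of 8 tested were negative, with a median log2 change of -0.80 and none passing (edgeR, 5 lower at an unadjusted p under 0.05, where 4.70% of all genes were). The sum of the 10 cartilage markers in the table was 68.8 to 74.8 CPM at E16.5 against 44.5 to 50.0 CPM at E18.5. None was at 0 in all libraries, though Cnmd was at 0 counts in 3 and Matn3 in 4. Col2a1, the type II collagen of cartilage, was at 7.83 ± 0.992 CPM at E16.5 against 2.10 ± 0.680 CPM at E18.5, with an adjusted p of 0.0734. The part of cartilage cells in the values of Acan was not tested.

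Has2, the hyaluronan synthase, had the lowest mean CPM of the members at both stages, with 96 to 273 counts per library. In FPKM, Acan was below it at E16.5 (means of 0.389 against 0.518). Has2 was at 2.25, 3.36 and 1.40 CPM in the E16.5 libraries against 2.81, 3.06 and 2.54 CPM in the E18.5 libraries. The E18.5 values lay inside the range of the E16.5 values. The log2 change of 0.26 ± 0.35 had an adjusted p of 0.830.

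**Figure D2:**
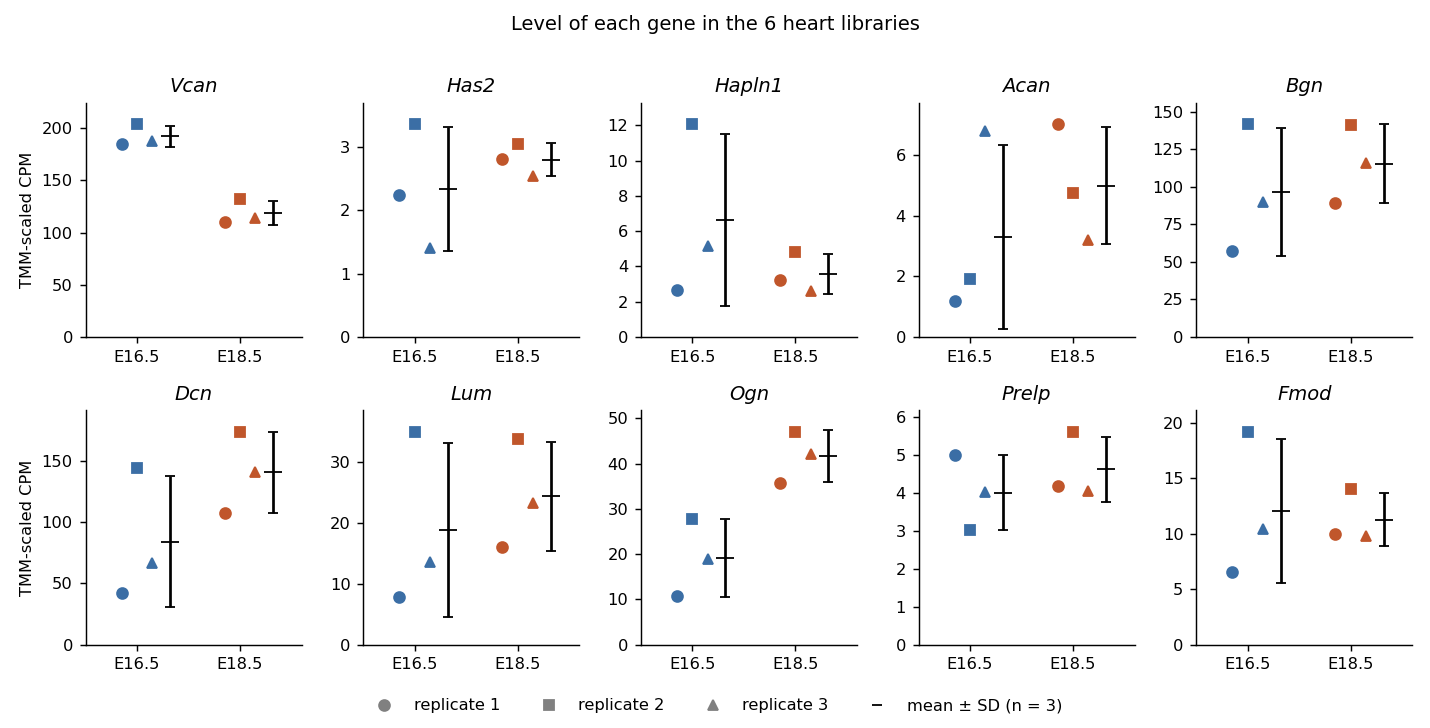
TMM-scaled CPM of each member (vertical axes, each from 0) in E16.5 libraries (blue) and E18.5 libraries (orange), with marker shapes for replicates 1 to 3 and the mean ± SD in black. Stages separate for Vcan (110 to 132 CPM at E18.5, 185 to 204 at E16.5) and Ogn, and E16.5 replicate 2 (blue square) is the highest E16.5 library in 8 of the 10 panels, all but Acan and Prelp.

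Ogn, whose product osteoglycin binds collagen and is abundant in adult heart matrix, was the SLRP member with the largest difference. It was at 10.7, 27.8 and 18.9 CPM in the E16.5 libraries against 35.8, 47.1 and 42.2 CPM in the E18.5 libraries. Every E18.5 library was above every E16.5 library. The log2 change was 1.12 ± 0.31, a 2.18-fold higher level, with an adjusted p of 0.294 (edgeR). Without E16.5 replicate 2 it was 1.49 with an adjusted p of 0.0370, and with the mitochondrial share as a term it was 1.008 with an adjusted p of 0.0268. The adjusted p ran from 0.0190 (DESeq2) to 0.831 over the 15 alternatives. Among libraries above and below the 30% mitochondrial share, the differences were 1.33 and 0.68. In deposited FPKM the stages touched, since E16.5 replicate 2 (12.2) was above E18.5 replicate 1 (11.9). Cenpp overlaps Ogn on the other strand with 11.2% of its counts, and no label says whether reads were counted by strand.

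Dcn, which coats collagen fibrils and binds TGF-beta, was at 41.8, 145 and 66.5 CPM in the E16.5 libraries against 108, 174 and 141 CPM in the E18.5 libraries. E16.5 replicate 2 fell among the E18.5 libraries, and the other E16.5 libraries were below all of them. The log2 change of 0.74 ± 0.41 had an adjusted p of 0.594, and without E16.5 replicate 2 it was 1.38 with an adjusted p of 0.0420 (edgeR), the lowest of 15 alternatives, which reached 0.977. Above and below the 30% mitochondrial share the differences were 1.03 and 0.12.

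Bgn, the closest relative of Dcn and an X-linked gene, was at 57.1, 142 and 90.1 CPM in the E16.5 libraries against 88.9, 141 and 116 CPM in the E18.5 libraries. The stages overlapped across most of their range, and so did the libraries in which Xist exceeded the Y-linked genes (142, 90.1 and 116 CPM) and the others (57.1, 88.9 and 141 CPM). The log2 change was 0.26 ± 0.31 (adjusted p = 0.806, edgeR), and it was -0.014 without E16.5 replicate 1. Without E16.5 replicate 2 it was 0.65, with an adjusted p of 0.155 (edgeR). Lum, which lies next to Dcn and regulates fibril width, was at 7.89, 35.1 and 13.5 CPM at E16.5 against 16.03, 33.9 and 23.4 CPM at E18.5. Its lowest and highest libraries were both of E16.5, and its log2 change of 0.38 ± 0.50 had an adjusted p of 0.831. Without E16.5 replicate 2, the highest, the log2 change of Lum was 1.19 with an adjusted p of 0.0887 (edgeR).

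Fmod, which shares a collagen site with Lum, was at 6.52, 19.2 and 10.4 CPM in the E16.5 libraries against 9.95, 14.0 and 9.77 CPM in the E18.5 libraries. The E18.5 values again lay inside the E16.5 range, and the log2 change of -0.10 ± 0.36 (adjusted p = 0.942, edgeR) changed sign under 5 of 15 alternative fits. Prelp, an SLRP that anchors basement membrane to collagen, was at 4.99, 3.02 and 4.02 CPM at E16.5 against 4.19, 5.62 and 4.06 CPM at E18.5. It was the SLRP member in which E16.5 replicate 2 was the lowest library, and its log2 change was 0.21 ± 0.26 (adjusted p = 0.821).

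Per length, the abundant members were Bgn, Dcn and Vcan at E16.5, with 15.1 ± 9.87, 14.2 ± 11.98 and 12.1 ± 3.35 FPKM (SD, n = 3). They were followed by Lum (7.69 ± 7.34), Ogn (7.14 ± 4.62) and Fmod (3.54 ± 2.65 FPKM). None of these steps exceeded the SD of both neighbours. The SD includes movement that genes share between libraries, so it does not measure the order within a library. Ogn, for example, was above Fmod in each E16.5 library (3.06, 12.2 and 6.19 against 1.45, 6.51 and 2.64 FPKM). Hapln1 (1.12 ± 1.04), Prelp (0.959 ± 0.0485), Has2 (0.518 ± 0.327) and Acan (0.389 ± 0.335 FPKM) came last, and here the step from Prelp to Has2 exceeded the spread of both. At E18.5 the order was Dcn (23.4 ± 7.07), Bgn (18.3 ± 5.40), Ogn (15.7 ± 3.33), Lum (9.71 ± 4.12), Vcan (7.89 ± 1.304) and Fmod (3.27 ± 0.864 FPKM), with Prelp (1.23 ± 0.289), Has2 (0.631 ± 0.0796), Acan (0.623 ± 0.184) and Hapln1 (0.576 ± 0.206 FPKM) after them. The steps from Ogn to Lum, Vcan to Fmod, Fmod to Prelp and Prelp to Has2 exceeded the SD of both neighbours, and the other steps did not. Dcn was nonetheless above Bgn in each E18.5 library, with a ratio in FPKM of 1.27, 1.29 and 1.27. Within a library, the Vcan to Dcn ratio in FPKM was 1.79, 0.569 and 1.14 in the E16.5 libraries against 0.412, 0.306 and 0.327 in the E18.5 libraries. Vcan therefore exceeded Dcn in 2 of 3 E16.5 libraries and in 0 of 3 E18.5 libraries.

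The share of each SLRP in the summed FPKM of the 6 does not depend on how libraries are scaled. Fmod made up 7.24%, 7.27% and 7.27% of the sum in the E16.5 libraries against 5.21%, 4.66% and 4.03% in the E18.5 libraries. The E16.5 shares were nearly equal although the level of Fmod differed between those libraries, and all were above those of E18.5. Bgn made up 34.4%, 29.1% and 34.1%  at E16.5 against 25.2%, 25.4% and 26.0% at E18.5, again without overlap. Ogn went the other way, with 15.3%, 13.6% and 17.0%  at E16.5 against 24.2%, 20.2% and 22.4% at E18.5. Dcn made up 26.3%, 31.1% and 26.3%  at E16.5 against 32.05%, 32.8% and 33.0% at E18.5, while Lum (11.8% to 17.9% and 11.3% to 15.2%) and Prelp (1.04% to 5.06% and 1.53% to 2.00%) overlapped. The shares are not independent of each other, because they add to the whole. Over all 17 SLRP genes of the table, the shares of Bgn, Fmod and Ogn still separated the stages and that of Dcn did not. The Ogn to Bgn ratio in FPKM was 0.470 ± 0.0277  at E16.5 against 0.871 ± 0.0826 at E18.5, and the Dcn to Bgn ratio was 0.868 ± 0.173 and 1.28 ± 0.0108 (SD, n = 3). No test was run on these shares and ratios, since the members were chosen with results known.

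**Figure D3:**
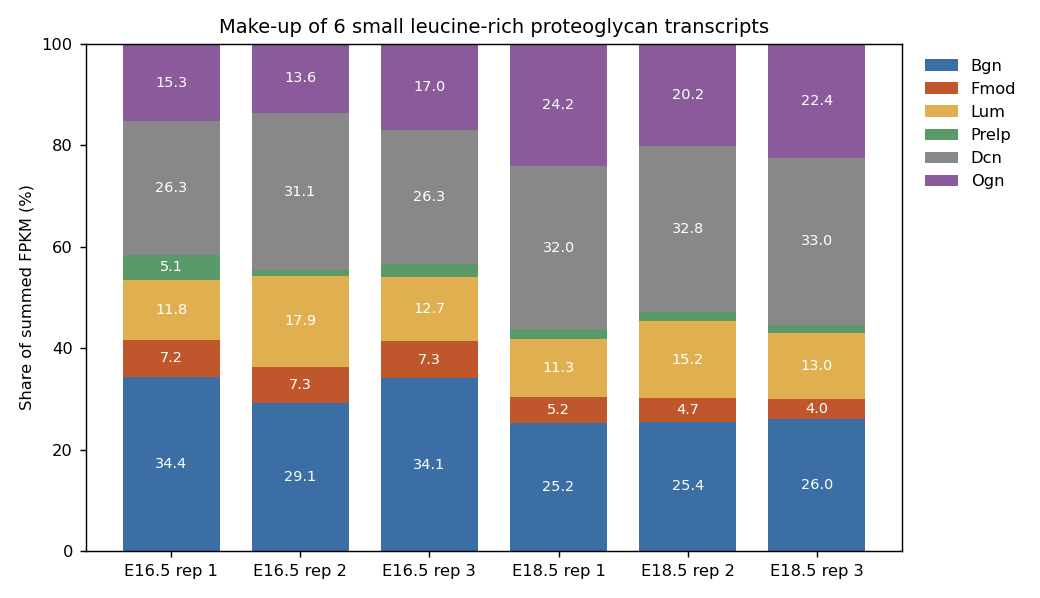
Share of each of 6 SLRP members in their summed FPKM (vertical axis, percent) in each of the 6 libraries, as stacked bars. Bgn and Fmod take a larger part in each E16.5 library (Bgn 29.1% to 34.4%) than in any E18.5 library (25.2% to 26.0%), and Ogn a smaller one.

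Among the 6 SLRP members, the CPM values of Bgn, Dcn, Lum, Prelp and Fmod overlapped between stages, and those of Ogn did not. Bgn, Dcn, Lum, Ogn and Fmod moved together over the 6 libraries, with Pearson r between 0.56 and 0.99 for each pairing of their log2 CPM (a description of 6 libraries that share scaling and depth). Prelp, the remaining SLRP member, did not, with r of -0.506 to -0.015 to each of them. The lowest levels of Bgn, Dcn, Lum, Ogn and Fmod were in E16.5 replicate 1, the library with the highest mitochondrial share (41.4%). Bgn, Lum and Fmod were highest in E16.5 replicate 2, which had the lowest share (19.9%), and Dcn and Ogn were highest in E18.5 replicate 2. Vcan also ran from 185 CPM at the highest share to 204 CPM at the lowest within E16.5, but every E18.5 library was below that range, at 110 to 132 CPM. The part of RNA quality or tissue composition in this spread was not tested.

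**Figure D4:**
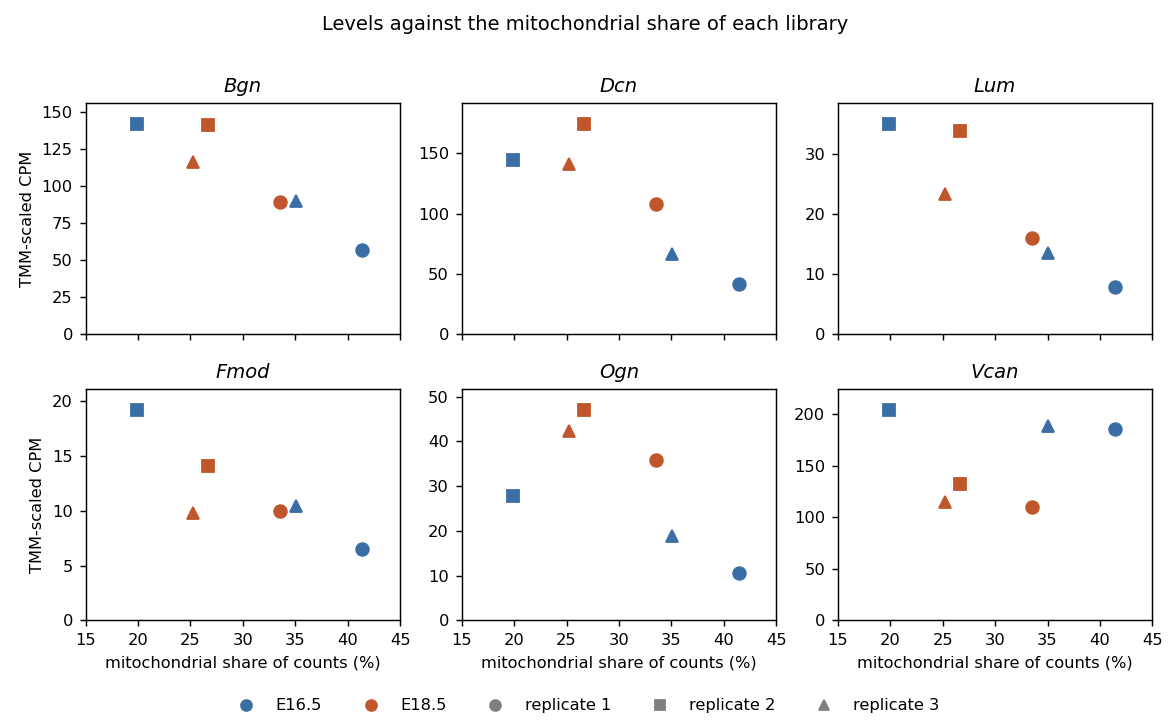
TMM-scaled CPM (vertical axes, from 0) of 5 SLRPs and Vcan against the mitochondrial share of counts in each library (horizontal axis, percent), E16.5 in blue and E18.5 in orange. Among the E16.5 libraries Bgn and Lum are lower where the share is higher (Bgn 142 CPM at 19.9%, 57.1 CPM at 41.4%). In E18.5, Bgn is lowest at the highest share (88.9 CPM at 33.5%) but not highest at the lowest. Pearson r of log2 CPM to the share over the 6 libraries is -0.953 (Lum) to -0.717 (Ogn) for the 5 SLRPs. It is 0.099 for Vcan, which separates by stage.

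The genes whose log2 CPM most resembled Dcn over the 6 libraries, among 9049 genes outside all lists with a mean of at least 10 CPM, were Ppa1, Churc1, Rab18, Cd9 and Slc35e1, with Pearson r of 0.996 to 0.997. Of those genes, 966 (10.7%) had an r of at least 0.9 with Dcn, against 126 (1.39%) with Vcan. The genes most like Vcan were Pef1 (r of 0.986), Bcl2l11 (0.981), Gstz1 (0.980), Txnip (0.977) and Asah2 (0.977). With 6 libraries these values describe a ranking only.

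Promoter sequence was at hand for 7 of the 10 members in RefSeq (GRCm38.p6), and those of 3 are shown: Vcan and Ogn as the members whose stages did not overlap, and Bgn as the SLRP to which Ogn and Dcn were set in ratio. Each run is the 250 bases before the RefSeq start, read 5′ to 3′ on the strand of the gene, at 13:89742513-89742762 (minus), 13:49607765-49608014 (plus) and X:73483351-73483600 (plus). Capitals mark matches, on either strand, to the TATA box TATAAA, the CCAAT box CCAAT, the GC box GGGCGG that Sp1 binds, and the AP-1 element TGANTCA, where N is any base.
Vcan: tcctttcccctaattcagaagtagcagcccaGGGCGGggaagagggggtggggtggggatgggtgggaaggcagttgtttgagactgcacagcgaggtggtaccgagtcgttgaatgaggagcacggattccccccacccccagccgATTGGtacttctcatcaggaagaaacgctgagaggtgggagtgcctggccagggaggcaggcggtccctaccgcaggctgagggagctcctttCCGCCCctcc
Ogn: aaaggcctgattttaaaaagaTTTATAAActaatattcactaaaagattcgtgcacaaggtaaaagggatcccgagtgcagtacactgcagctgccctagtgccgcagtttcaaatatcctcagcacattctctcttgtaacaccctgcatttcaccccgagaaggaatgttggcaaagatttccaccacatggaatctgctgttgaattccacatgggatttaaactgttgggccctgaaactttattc
Bgn: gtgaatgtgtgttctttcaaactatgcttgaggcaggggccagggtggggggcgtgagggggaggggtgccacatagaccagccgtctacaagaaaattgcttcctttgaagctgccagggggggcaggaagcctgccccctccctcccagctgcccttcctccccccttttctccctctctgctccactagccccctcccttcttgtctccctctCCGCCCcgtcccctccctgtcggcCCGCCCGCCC
The Vcan run holds 2 GC boxes and 1 CCAAT box, and the Bgn run 3 GC boxes. The Ogn run holds neither, and has overlapping TATA box letters on both strands, which begin at positions -229 and -227 from the start. Of 32851 promoter windows of this length, 32.7% held GGGCGG, 33.9% CCAAT, 12.4% TATAAA and 6.75% TGANTCA. The runs also differ in CpG dinucleotides, with 10 in Vcan, 7 in Bgn and 4 in Ogn, where the median window held 6. These letters are a description and no binding was measured.

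The SLRP genes sit in clusters left by old duplications, and their log2 changes are given here by cluster. On chromosome 13, Ecm2, Aspn, Omd and Ogn follow each other with gaps of 11.7, 14.9 and 15.2 kb. Aspn, which makes asporin, a collagen-binding SLRP that binds TGF-beta, was at 22.6, 46.9 and 31.9 CPM at E16.5 against 77.9, 108 and 84.9 CPM at E18.5. Its stages did not overlap, and its log2 change of 1.42 ± 0.26 had an adjusted p of 0.147 (edgeR). It passed without E16.5 replicate 2 (0.0163), with the mitochondrial share as a term (0.00665) and with a replicate block (0.0170), and its adjusted p over the 15 alternatives reached 0.618. Ecm2, in the same cluster, was at 10.1 ± 3.01 and 9.67 ± 0.968 CPM with a log2 change of -0.060. Omd stayed under 1 CPM in every library, and its log2 change of 0.066 ± 0.89 is not resolved. Cenpp overlaps Aspn, Ecm2 and Omd on the other strand, with 5.54%, 34.4% and 1025% of their counts. On chromosome 10, Dcn and Lum are 47.0 kb apart. Beyond them Kera was not tested, with 0 to 20 counts, and Epyc had a log2 change of -0.35 (adjusted p = 0.879). On chromosome 1, Optc had a log2 change of -0.68 (adjusted p = 0.777), beside Prelp at 0.21 and Fmod at -0.10. Hapln3, the link protein gene beside Acan on chromosome 7, was at -0.26 (adjusted p = 0.807).

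**Figure D5:**
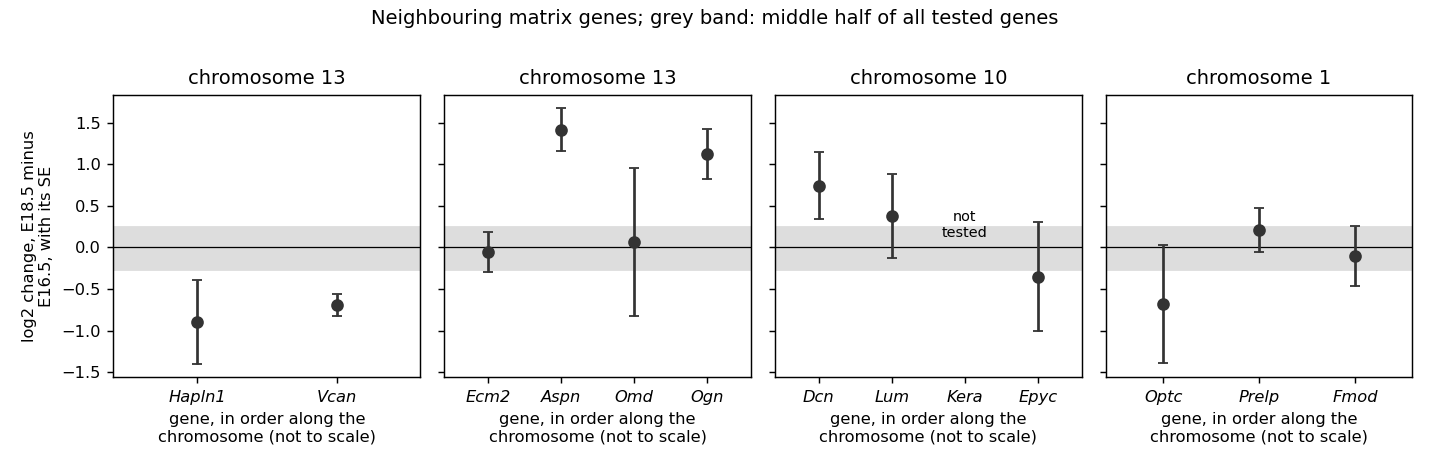
Log2 change between stages with its standard error (vertical axis) for the genes of 4 clusters, in their order along the chromosome (horizontal axis, not to scale), and a grey band for the quartiles of all tested genes. Aspn (1.42) and Ogn (1.12) are high, and Ecm2 beside them is near 0. Omd between them has a long bar (0.066 ± 0.89), so its change is not resolved. Hapln1 and Vcan are both below 0.

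Of the 17 SLRP genes, 16 were tested and 0 passed in either direction, with a median log2 change of 0.034. At an unadjusted p under 0.05, 4.83% of all genes were higher and 4.70% lower (edgeR). Of the SLRP genes, 3 were higher and 1 was lower at that p. Besides Ogn, the higher ones were Aspn and Podn, which makes podocan, a collagen-binding inhibitor of smooth muscle growth. Podn was at 2.39, 0.813 and 2.53 CPM at E16.5 against 10.8, 6.94 and 7.23 CPM at E18.5, and its log2 change of 2.13 ± 0.42 had an adjusted p of 0.159. All E18.5 libraries were above all E16.5 libraries, but Scp2, which overlaps Podn on the same strand, held 1547% of its counts, so its value is uncertain. The lower one was Nyx, an SLRP of the retina, at 1.22 ± 0.610 and 0.387 ± 0.144 CPM (log2 change -1.65, adjusted p = 0.415). Tsku, a secreted inhibitor of several growth factors, was at -0.080 (adjusted p = 0.930).

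Genes that make hyaluronan and its sugar precursors all had positive log2 changes, 10 of 10 with a median of 0.32, where 49.8% of all genes were positive. None passed, and 4 were higher at an unadjusted p under 0.05 (edgeR), as were 4.83% of all genes. The summed level of the 10 synthesis genes was 160 to 210 CPM at E16.5 against 220 to 238 CPM at E18.5, without overlap. Ugp2, a precursor gene, was the largest part of that sum, with means of 90.2 and 112 CPM, and its stages overlapped. Among the synthases Has1, Has2 and Has3, the highest mean was 2.80 CPM (Has2 at E18.5), so the sum says little about them. Gfpt2, an isoform of the enzyme that sets the rate of hexosamine synthesis, was at 8.00, 8.56 and 9.80 CPM at E16.5 against 14.1, 17.1 and 16.6 CPM at E18.5. All E18.5 libraries were higher, and its log2 change of 0.86 ± 0.16 had an adjusted p of 0.149. Has1, a second hyaluronan synthase, was low, at 0.415, 0.493 and 0.597 CPM at E16.5 against 1.26, 1.25 and 1.07 CPM at E18.5 (log2 change 1.25, adjusted p = 0.382). Gfpt1 (0.50, adjusted p = 0.477) and Ugdh, which makes UDP-glucuronate (0.27, adjusted p = 0.524), completed the 4.

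Receptors and binding partners of hyaluronan were mixed, with 5 of 11 tested positive and 0 passing (edgeR, 1 higher at an unadjusted p under 0.05). By comparison, 4.83% of all genes were higher and 4.70% lower at that p. Lyve1, the hyaluronan receptor of lymphatic endothelium and some macrophages, was at 4.69, 7.12 and 6.18 CPM at E16.5 against 9.56, 12.5 and 11.1 CPM at E18.5, without overlap (log2 change 0.88 ± 0.21, adjusted p = 0.226). Of the 7 lymphatic endothelium markers, 5 were positive and 0 passed. Their summed level was 104 to 112 CPM at E16.5 against 98.4 to 107 CPM at E18.5. That sum joins opposite movements. Prox1, its largest part (means of 44.7 and 37.5 CPM), and Ccl21a (25.3 and 16.7 CPM) were lower at E18.5 without overlap. Pdpn, like Lyve1, was higher without overlap. Itih5 (0.53) and the hyaluronan-modifying Tnfaip6 (1.74) had adjusted p of 0.611 and 0.615, and the clearance receptor Stab2 was at -0.29 (0.838). Of 8 tested genes of hyaluronan breakdown, 5 were negative and 0 passed, with a median of -0.058 and 1 lower at an unadjusted p under 0.05. Among them Hexa, a lysosomal hexosaminidase subunit, was at -0.35 (adjusted p = 0.472) and Cemip at -0.18 (adjusted p = 0.882). Hyal1 and Hyal3 overlap the more abundant Naa80 on the same strand and their values are uncertain.

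Proteases that cut versican, the ADAMTS enzymes, had positive log2 changes in 7 of 8 genes with a median of 0.39, and 0 passed (edgeR, 2 higher at an unadjusted p under 0.05). Over all genes 49.8% were positive and 4.83% higher at that p. The summed level of the 8 proteases was 89.6 to 104 CPM at E16.5 against 130 to 132 CPM at E18.5, without overlap. Adamts9, needed to clear versican from the developing heart, was at 41.7, 34.8 and 34.3 CPM at E16.5 against 46.9, 47.2 and 54.8 CPM at E18.5 (log2 change 0.43 ± 0.13, adjusted p = 0.366). Adamts8 was at 8.05, 17.2 and 15.0 CPM at E16.5 against 27.8, 24.0 and 17.7 CPM at E18.5 (log2 change 0.78, adjusted p = 0.441). Stages did not overlap for either gene, and 8.45% of all genes lay above in this way. Adamts1 was at 0.40 (adjusted p = 0.526).

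Other hyaluronan-binding cores were scarce, with Ncan and Bcan at or below 1.64 CPM in every library and log2 changes of 0.70 and 0.31. Among the remaining link proteins, Hapln2 and Hapln4 were at 1.19 and 0.66, each at or below 1.02 CPM. Enzymes that build chondroitin and dermatan sulfate chains had a median log2 change of 0.067, with 11 of 21 positive and 0 passing (edgeR). Where 4.83% of all genes were higher at an unadjusted p under 0.05, 1 of the 21 was. That gene was Dsel, a relative of the dermatan sulfate epimerase (0.53, adjusted p = 0.502), and Csgalnact2, which starts the chain, was at 0.47. Chst11 (-0.31) and Csgalnact1 (-0.31) were negative. For keratan sulfate, 4 of 7 tested genes were positive with a median of 0.040, and Chst4 (1.20), B4galt4 (-0.25), Chst2 (0.34) and Slc35d2 (-0.37) did not pass.

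Fibrillar collagens, the partners of the SLRPs, had positive log2 changes in 7 of 9 genes with a median of 0.30, and 0 passed (edgeR). The unadjusted p was under 0.05 in 4 positive and 1 negative. Among all genes tested, 49.8% were positive, 4.83% were higher at that p and 4.70% lower. Col1a1 was at 422, 861 and 738 CPM at E16.5 against 1255, 1321 and 929 CPM at E18.5 (log2 change 0.79, adjusted p = 0.402). Col1a2 was at 0.62 (adjusted p = 0.364) and Col5a3 at 1.21 (adjusted p = 0.350). The Dcn to Col1a1 ratio in FPKM was 0.134 ± 0.0481  at E16.5 against 0.139 ± 0.0381 at E18.5 (SD, n = 3), so these stages differed in it by less than the spread between replicates. The Vcan to Col1a1 ratio was 0.199, 0.108 and 0.116  at E16.5 against 0.0398, 0.0453 and 0.0559 at E18.5, without overlap. Of 24 other proteoglycan cores, 16 were positive and 0 passed, with a median of 0.13 (unadjusted p under 0.05 in 4 positive and 2 negative genes). Examples were Srgn, the granule proteoglycan of blood cells (1.19, adjusted p = 0.431), Spock1 (1.07, adjusted p = 0.425), Gpc1 (0.33, adjusted p = 0.426) and Smoc1 (-0.61, adjusted p = 0.374).

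Fibroblast markers had positive log2 changes in 10 of 12 genes with a median of 0.30, 0 passing (edgeR, 5 higher at an unadjusted p under 0.05). Over all genes 49.8% were positive, 4.83% were higher at that p and 8.45% lay above without overlap, as 6 of the 12 did. The summed level of the fibroblast markers was 2337 to 3564 CPM at E16.5 against 3614 to 4677 CPM at E18.5, without overlap and with none at 0. Of these, Col1a1 and Col3a1 are also in the collagen list. With Postn they were the largest parts of the sum, at E16.5 means of 674, 944 and 785 CPM. The sum therefore says little about the other fibroblast markers. Pdgfra, a receptor that defines cardiac fibroblasts, was nearly level, at 35.1, 42.0 and 45.4 CPM at E16.5 against 36.0, 47.5 and 43.8 CPM at E18.5. Against it, the Ogn to Pdgfra ratio in FPKM was 1.19, 2.59 and 1.63  at E16.5 against 3.88, 3.87 and 3.77 at E18.5, and the Vcan to Pdgfra ratio was 3.66, 3.37 and 2.87  at E16.5 against 2.12, 1.92 and 1.81 at E18.5. Neither ratio overlapped between stages. The Dcn to Pdgfra ratio did overlap, at 2.04, 5.92 and 2.52 at E16.5 against 5.15, 6.30 and 5.55 at E18.5. The 12 fibroblast markers ran from -0.15 (Fn1) to 0.99 (Scara5) in log2 change, with Pdgfra at 0.056 and Col1a1 at 0.79. Ogn was set in ratio to no other of them, so its ratio to Pdgfra does not measure Ogn per fibroblast. Valve and cushion mesenchyme markers had a median of -0.015 with 5 of 11 positive, a summed level of 220 to 242 CPM at E16.5 against 218 to 231 CPM at E18.5, and none at 0. Most of that sum was Tbx20, whose E16.5 mean was 138 CPM and whose E18.5 mean was 139 CPM (log2 change 0.0066). The sum therefore says little about the other genes of this list, of which Nfatc1 is also in the endocardium list. Twist1 (-0.62) and Sox9 (-0.40), factors of cushion mesenchyme, were lower at an unadjusted p under 0.05 and did not pass. Epicardial markers, with 11 of 12 positive and 1 passing (Krt19, a keratin), had a summed level of 190 to 202 CPM at E16.5 against 248 to 318 CPM at E18.5. Smooth muscle and pericyte markers had 7 of 9 positive with a median of 0.42, 0 passing and 4 higher at an unadjusted p under 0.05. Their summed level was 736 to 751 CPM at E16.5 against 941 to 1030 CPM at E18.5, without overlap and with none at 0. The part of these cell types in the values of the members was not tested.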

How the data were processed

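Polyadenylated RNA of 6 heart libraries was sequenced in pairs with UMI adapters and a dUTP-marked second strand, per the labels' protocols. The submitters' processing notes name the build mm9 and the tools StringTie 1.3.4d, HISAT2 2.0.4, cutadapt 1.9 and UMI-tools, without their roles. The authors deposited estimated counts, as whole numbers, and FPKM values (scaled by length and library size) for 31529 genes. No label says whether UMIs or strand entered the counting.

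The test between stages was that of edgeR 4.0.16 under R 4.3.3 (filterByExpr, TMM, quasi-likelihood, two-sided) over 19959 genes, with Benjamini-Hochberg adjustment and a threshold of 0.05. CPM values are TMM-scaled. SE is the absolute log2 change over the square root of F. P-values measure the spread between these libraries, whose origin in separate animals is known only from the word biological. DESeq2 1.42.0 and limma 3.58.1 served as alternatives. Tested on simulated counts for this comparison, edgeR recovered 123 of 192 genes changed 4-fold with 8 false calls (19187 genes), and DESeq2 147 of 200 with 49 (19959 genes).

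Positions are those of GENCODE M21 on GRCm38, matched by Ensembl identifier. The deposited coordinates matched it for 611 of 29874 identifiers and are not printed. Overlaps were read from the deposited table, and copies were sought among transcripts at 95% identity over 200 bases. No member had a copy with counts. Named genes were the members, up to 4 others per list by smallest p, the cluster partners and the 5 genes most like Vcan and Dcn, of which 1 ADAMTS gene is not reported here. The other marker genes were named after their values were seen. The members and lists were chosen with earlier results of these data known.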

Additional observations from a re-analysis of the deposited data

How the results depend on the processing

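Of 15 alternatives, DESeq2 called 247 genes higher and 161 lower (19 and 11 in edgeR), with 1 member higher (Ogn), 1 lower (Vcan), and 5 higher and 1 lower among 112 other genes of the function lists. The mitochondrial share as a term gave 129 and 55 genes, the same 1 and 1 members, and 2 and 1 list genes. Library sizes without TMM gave 7 and 5 genes, limma on log2(FPKM + 1) 5 and 5, limma with 0.1 in place of 1 10 higher, and sex as a term 8 and 6. In FPKM, 0 members lay above without overlap. Leaving out a library gave 6 to 339 genes higher and 2 to 170 lower, 0 to 2 members higher and 0 to 1 lower, and 0 to 4 list genes higher and 0 to 1 lower. The highest counts of members came without E16.5 replicate 2 (Ogn and Dcn higher, Vcan lower). A replicate block gave 30 genes higher and 1 list gene (Aspn). Same-numbered libraries correlated at 0.283, 0.372 and -0.081 in their deviations, and differently numbered ones at -0.454 to 0.283. With 3 libraries a stage, these values cannot show whether same-numbered libraries share an origin, and the labels give only the number. Signs reversed for Fmod (0.052 and 0.12 in limma with 1 and 0.1, 0.14 with sex, 0.017 with the block, 0.41 without E16.5 replicate 2) and Ecm2 (0.030, 0.080, 0.13 with sex, 0.13 without E16.5 replicate 2, 0.010 without E18.5 replicate 1). Without E16.5 replicate 1 they reversed for Bgn (-0.014), Stab2 (0.059), Cemip (0.030) and Omd (-0.19), and Omd was at -0.39 without E16.5 replicate 2 and -0.35 without E18.5 replicate 1. Without E16.5 replicate 3 they reversed for Has2 (-0.012), Optc (0.088), Csgalnact1 (0.00021) and Epyc (0.40). Over the fits without a library these genes ran up to 0.62 (Has2), 0.65 (Bgn) and 1.25 (Omd), and down to -0.40 (Fmod), -0.52 (Stab2), -0.41 (Cemip), -1.17 (Optc), -0.49 (Csgalnact1), -0.68 (Epyc) and -0.29 (Ecm2). The cause was not tested. Among the low members, the log2 changes of Has2, Acan and Prelp were within their SE and that of Hapln1 was beyond it, and none passed. With 3 libraries a stage, differences in these members may have gone undetected.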
